A study of Mus musculus with 15 samples.

Results

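Ion transport along the kidney tubule is driven by ATP-consuming pumps, and the genes described here encode the subunits of the main proton and sodium pumps. They were chosen by gene symbol: the subunits and accessory proteins of the V-ATPase (symbols beginning with Atp6v0, Atp6v1 or Atp6ap), the alpha and beta subunits of the Na,K-ATPase (Atp1a and Atp1b), the small FXYD proteins that bind it, and the H,K-ATPases Atp4a, Atp4b and Atp12a. The rule found 43 of the 47069 genes in the deposited table, after 1 pseudogene symbol was left out. Of these, 25 were V-ATPase genes (13 of the V1 sector, 9 of the V0 sector and 3 accessory), 4 were alpha subunits, 4 beta subunits, 7 FXYD proteins and 3 subunits of H,K-ATPases. Expression was measured by RNA-Seq in 12 libraries, each made from a single microdissected proximal tubule that the labels call PTS2, and in 3 whole kidney libraries. The tubules fall into 3 sets (m1, m2, m3), each with replicates 1 to 4. All came from C57BL/6 males aged 2 months, and the labels name no treatment, transgene or mutant allele in any group. The labels do not say what the letter m stands for or whether replicates came from separate animals, so p-values here measure only the spread between these libraries.

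The V-ATPase is a rotary pump: its peripheral V1 sector hydrolyses ATP and turns the rotor of the membrane-bound V0 sector, which carries protons across the membrane. Every cell uses it to acidify lysosomes and endosomes, and in the proximal tubule it also serves the uptake of filtered protein and the secretion of protons into the lumen. Intercalated cells of the collecting duct carry it at high density in the plasma membrane, built with isoforms that few other cells use (B1, C2, G3, d2 and a4, encoded by Atp6v1b1, Atp6v1c2, Atp6v1g3, Atp6v0d2 and Atp6v0a4). The Na,K-ATPase of the basolateral membrane exports sodium in exchange for potassium and supplies the gradient that most other tubular transporters use. Its alpha subunit is the catalytic one, its beta subunit takes the enzyme to the membrane, and FXYD proteins tune its affinity for ions.

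Values are TPM, a measure that corrects for transcript length and gives every library the same sum, so levels can be set side by side between genes. Read depth cannot be recovered from TPM, and the values carry no counting error. The marker lists showed what else the libraries held. The summed level of 8 markers of intercalated cells lay between 0.01 and 0.47 TPM in PTS2 and between 116 and 135 TPM in whole kidney, and each of the 8 was lower in every PTS2 library than in every kidney library. One library stood apart: in m3 replicate 3, 5 markers of the thick ascending limb summed to 1441 TPM, 56.1% of the kidney mean, against at most 55.8 TPM in the other PTS2 libraries. The 4 markers of principal cells, the other main cell type of the collecting duct, summed to between 7.92 and 50.5 TPM in PTS2 and between 557 and 823 TPM in kidney. Both markers of the early proximal segment S1 together reached at most 1.49 TPM in PTS2, against 699 to 780 TPM in kidney. Of the lists for cells other than tubule cells, that of macrophages (4 genes) kept 57.5% of its kidney level. It summed to 23.1 to 75.9 TPM, against 69.8 to 90.5 TPM in kidney. Most of that sum in PTS2 was Csf1r, at 14.99 to 69.74 TPM, against 18.27 to 23.51 TPM in kidney. The other 3 macrophage genes were below kidney in every PTS2 library and kept 8.04 to 10.5% of their kidney means. The list of endothelium (5 genes) kept 14.2%. The pair of S2 markers summed to 368 to 1149 TPM in PTS2 and 719 to 781 TPM in kidney. Of this pair, Slc22a8 was lower in every PTS2 library, at 24.72 to 160.99 TPM against 261.29 to 283.67. Slc22a6 overlapped, at 338.87 to 987.82 TPM against 434.99 to 511.65. The summed pair of S3 markers was higher in PTS2, at 1410 to 2205 TPM, than in kidney, at 705 to 954 TPM. Most of this sum was Slc7a13, at 1366.6 to 2140.5 TPM in PTS2 and 652.19 to 909.08 in kidney. The other, Slc5a1, overlapped, at 43.15 to 72.54 TPM against 44.82 to 53.1. The libraries labelled PTS2 thus also held S3 markers.

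Most of the pump genes were lower in PTS2 tubules than in whole kidney, and none was higher. Of the 43 genes, 31 averaged 1 TPM or more across the 15 libraries and were tested with limma on log2(TPM + 1). Of these 31, 26 (83.9%) passed the threshold of 0.05 on the adjusted p as lower in PTS2, where 41.5% of the 12039 genes tested were lower. None was higher, with or without adjustment, where 9.68% of all genes were. Among the 31 tested genes, 23 had every PTS2 library below every kidney library and 0 had every PTS2 library above, against 32% and 5.76% of all genes. A log2 difference below −1 was reached by 9 of the called genes, against 13.8% of all genes. The median log2 difference was −0.54 over the 31 genes and −0.27 over all genes tested. Of the 31, 6 had a PTS2 mean under 1 TPM and were tested only because of their level in kidney, so they had to differ: Atp6v1b1, Atp6v1c2, Atp6v1g3, Atp6v0d2, Atp4a and Fxyd1. Of the other 25, 20 were lower.

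The size of these differences depended on how the libraries were put on a common scale. As deposited, the median gene was lower in PTS2. With median-of-ratios rescaling, which brings the median difference of all genes to 0.00, 15 of the pump genes were lower and 2 were higher, against 23.1% lower and 23.6% higher among all genes. With quantile normalization, which gives all libraries the same distribution, 26 were lower and 2 higher, against 18.9% and 34.6%. The median over all genes was then 0.16. Both counts of lower pump genes include the 6 with a PTS2 mean under 1 TPM as deposited, which had to differ. Lower under all 3 scalings were, among others, Atp1b1, Atp1b3, Atp4a, Atp6ap2, Atp6v0a4, Atp6v0d1, Atp6v0d2, Atp6v1b1, Atp6v1c2, Atp6v1e1, Atp6v1g3, Fxyd1, Fxyd4 and Fxyd5. In bulk libraries such as these, fewer cells of a type and less RNA per cell cannot be told apart.

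**Figure D1:**
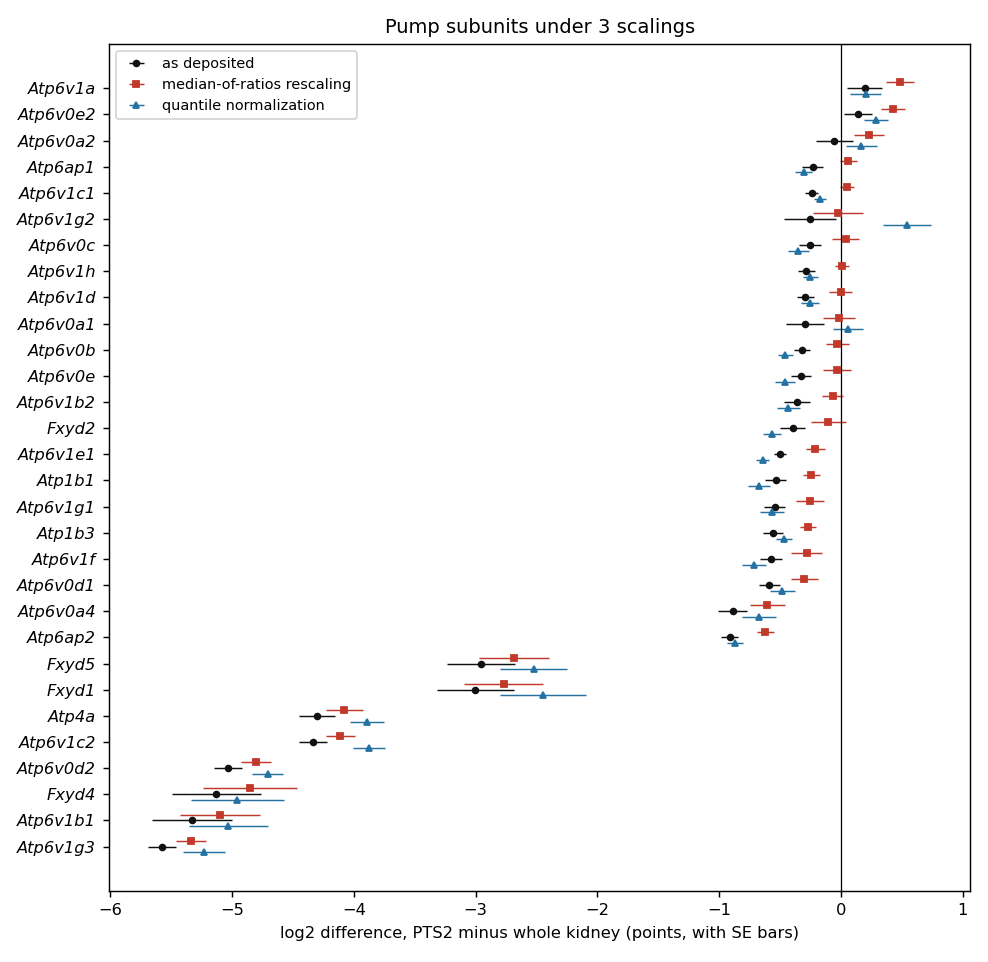
Log2 difference of PTS2 minus whole kidney for tested pump genes, with the values as deposited, median-of-ratios rescaling and quantile normalization. Each row is a gene, each marker a scaling, and bars are standard errors. The restricted V-ATPase isoforms Atp6v1g3 and Atp6v0d2 lie near −5 under each scaling, whereas Atp6v1a and Atp6v0e2 lie at or above 0.

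The V-ATPase isoforms of intercalated cells were nearly missing from PTS2 tubules, with 1 exception. Atp6v0d2, the d2 isoform of the stalk subunit that links the rotor to V1 (chr4:19876841-19922605, minus strand, GRCm38), was listed at 0 in 6 of 12 PTS2 libraries. Its PTS2 levels had a lowest value of 0, a median of 0.005 and a highest value of 0.33 TPM, while the kidney libraries held 32.06, 32.43 and 35.34 TPM. Every PTS2 library was far below every kidney library, and the mean level in PTS2 was 0.148% of that in kidney (log2 difference −5.03 ± 0.12 (SE), limma adjusted p = 2.2e-15). Atp6v0d2 was tested only because of its level in kidney, so it had to differ and this p adds no support.

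Atp6v1g3, the G3 isoform of the peripheral stalk (chr1:138273738-138289462, plus strand), ranged from 0 to 0.31 TPM in PTS2 with a median of 0.06, and was at 55.76, 45.96 and 51.2 TPM in kidney. The groups were again far apart, and 2 PTS2 libraries were listed at 0 (log2 difference −5.58 ± 0.12, limma adjusted p = 6.67e-16). Atp6v1c2, the C2 isoform of the subunit that clamps V1 to V0, ranged from 0 to 0.27 TPM with a median of 0.07, against 21.27, 22.25 and 19.36 TPM in kidney (log2 difference −4.33 ± 0.12, limma adjusted p = 1.27e-14). Both genes were tested only because of their level in kidney, so they had to differ. Atp6v1c2 overlaps Pdia6 on the other strand, and since no stranded counting is stated, reads of such neighbours cannot be told apart.

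Atp6v1b1 encodes B1, the B subunit isoform of intercalated cells whose loss in humans causes distal renal tubular acidosis with deafness. It was at 45.97, 54.29 and 40.18 TPM in kidney. In PTS2 it was listed at 0 in 5 libraries, with a median of 0.035 and a highest value of 3.08 TPM, which came from m3 replicate 3, the library with the thick ascending limb markers. No other PTS2 library of that set exceeded 0.07 TPM. The log2 difference was −5.33 ± 0.33 (limma adjusted p = 7.42e-10) and −5.49 without that library. Atp6v1b1 too was tested only because of its level in kidney, so it had to differ. In the same library Atp6v0d2 was at 0.33, Atp6v1c2 at 0.27 and Atp6v1g3 at 0.03 TPM, and Foxi1, the transcription factor of intercalated cells, was at 0.02 TPM. B1 was thus the restricted isoform with the highest level in that library apart from a4, and the part of other cells in its level was not tested.

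The exception was Atp6v0a4, the a4 isoform of the large V0 subunit that forms the proton half-channels (chr6:38048483-38124586, minus strand). Its levels in PTS2 had a lowest value of 22.39, a median of 26.1 and a highest value of 35.69 TPM, against 49.36, 48.6 and 55.53 TPM in kidney. All PTS2 libraries were below all kidney libraries, yet the mean was 53.5% of the kidney level, where the other 4 isoforms were under 1% (log2 difference −0.89 ± 0.12, limma adjusted p = 1.16e-05). Markers of intercalated cells were at 0.132% of the kidney level in the same libraries. Atp6v0a4 overlaps Tmem213 on the other strand and D630045J12Rik on its own strand.

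**Figure D2:**
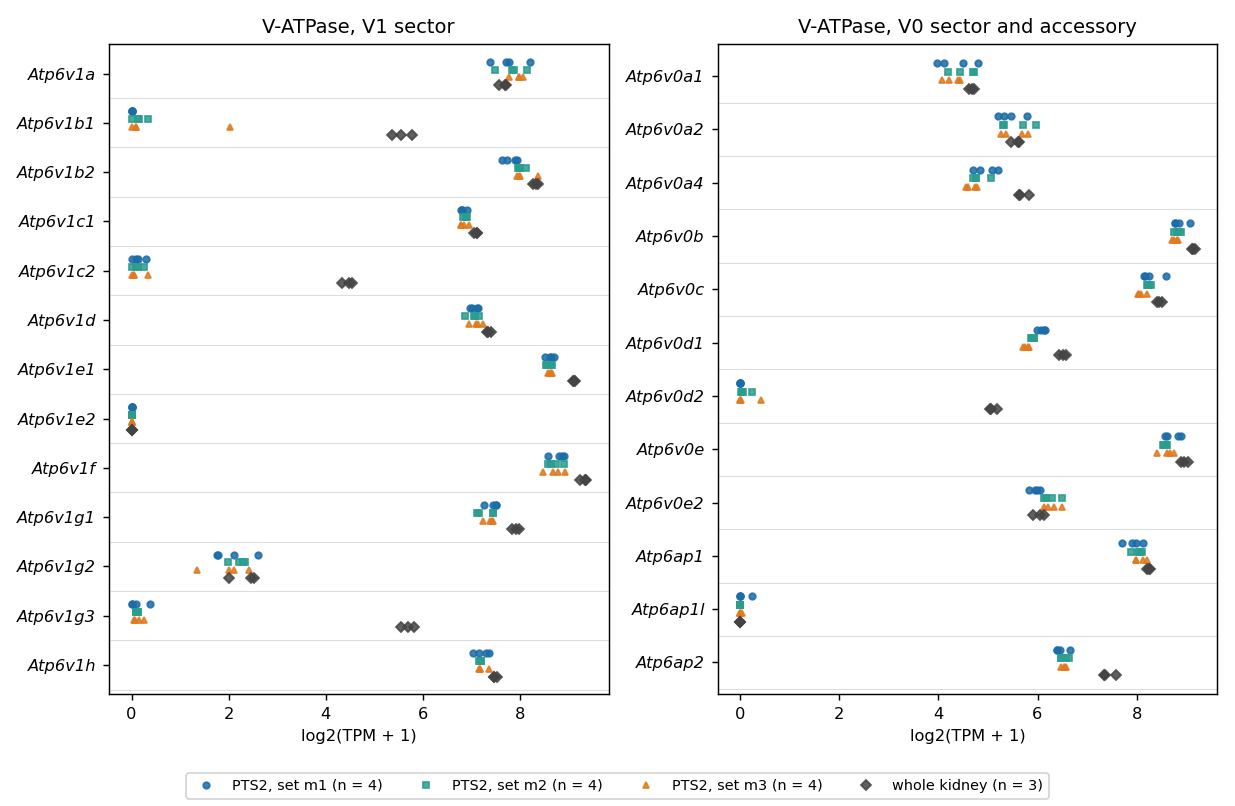
Levels of the V-ATPase subunit genes on a log2(TPM + 1) axis, with 1 point per library and the PTS2 sets m1, m2 and m3 (n = 4 each) and whole kidney (n = 3) marked apart. Most subunits lie within a factor of 2 between the groups, while Atp6v1b1, Atp6v1c2, Atp6v1g3 and Atp6v0d2 fall from 21.0 to 51.0 TPM on average in kidney to at most 3.08 TPM in any PTS2 library.

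Promoter sequences were compared because the restricted isoforms and the widely expressed subunits are built into the same pump but were so differently distributed. RefSeq windows of GRCm38.p6, from 250 bases before to 50 bases after a gene's start, matched 28 of the 43 genes with 32 windows. Among the members without a window were Atp1b2, Atp4b, Atp12a, Fxyd2, Fxyd7, Atp6ap1l, Atp6v0a2, Atp6v0d2, Atp6v1b2, Atp6v1c1, Atp6v1g1 and Atp6v1h. The stretches that follow lie upstream of 3 restricted isoforms, of the H,K-ATPase gene Atp4a, and of 2 widely expressed subunits for contrast. Each is given 5′ to 3′ on the gene's strand, and capitals mark CpG dinucleotides, the sites of DNA methylation.
Atp6v1g3: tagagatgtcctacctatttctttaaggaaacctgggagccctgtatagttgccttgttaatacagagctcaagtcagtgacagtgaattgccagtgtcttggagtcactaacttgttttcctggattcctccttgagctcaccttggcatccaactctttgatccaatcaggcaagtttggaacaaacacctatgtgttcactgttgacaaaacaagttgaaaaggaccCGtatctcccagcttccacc
Atp6v1b1: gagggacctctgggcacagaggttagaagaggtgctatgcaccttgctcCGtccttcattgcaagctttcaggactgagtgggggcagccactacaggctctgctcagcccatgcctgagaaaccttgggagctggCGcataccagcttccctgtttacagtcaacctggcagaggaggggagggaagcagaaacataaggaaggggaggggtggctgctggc
Atp6v0a4: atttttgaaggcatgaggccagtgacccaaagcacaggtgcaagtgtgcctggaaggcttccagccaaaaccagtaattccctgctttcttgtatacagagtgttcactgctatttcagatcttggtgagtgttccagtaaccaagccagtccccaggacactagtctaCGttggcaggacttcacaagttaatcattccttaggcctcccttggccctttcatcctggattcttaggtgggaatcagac
Atp4a: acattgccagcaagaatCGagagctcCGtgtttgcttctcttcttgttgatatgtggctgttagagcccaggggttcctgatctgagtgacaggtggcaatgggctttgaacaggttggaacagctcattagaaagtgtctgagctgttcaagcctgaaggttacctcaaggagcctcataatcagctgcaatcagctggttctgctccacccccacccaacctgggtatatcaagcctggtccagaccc
Atp6v0b: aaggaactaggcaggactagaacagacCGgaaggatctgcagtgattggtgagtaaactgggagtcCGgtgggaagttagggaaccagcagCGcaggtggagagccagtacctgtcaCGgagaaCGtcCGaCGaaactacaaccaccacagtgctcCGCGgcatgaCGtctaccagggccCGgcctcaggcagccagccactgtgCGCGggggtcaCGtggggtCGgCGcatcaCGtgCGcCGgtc
Atp6v1d: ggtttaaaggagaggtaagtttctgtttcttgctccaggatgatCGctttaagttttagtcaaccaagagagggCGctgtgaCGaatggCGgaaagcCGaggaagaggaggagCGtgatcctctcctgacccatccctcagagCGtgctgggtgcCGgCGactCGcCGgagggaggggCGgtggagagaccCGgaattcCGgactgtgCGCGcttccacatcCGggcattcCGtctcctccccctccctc

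The Atp6v1g3 stretch is chr1:138273488-138273737 (plus strand), that of Atp6v1b1 chr6:83742767-83742989 (plus), that of Atp6v0a4 chr6:38124587-38124836 (minus) and that of Atp4a chr7:30711959-30712208 (plus). The Atp6v0b stretch is chr4:117887334-117887579 (minus) and that of Atp6v1d chr12:78861639-78861888 (minus). CpG were sparse upstream of the first 4 genes, with 1 or 2 in each printed stretch, and dense upstream of the other pair, with 19 for Atp6v0b and 18 for Atp6v1d. Over whole windows of 300 bases, 11 widely expressed V-ATPase subunits with 13 windows held 7 to 30 CpG (median 20), and 4 restricted isoforms held 1 to 22 (median 2.5), beside a median of 7 over all 32851 windows. Atp6v1c2 departed from the other restricted isoforms with 22 CpG. Of the 4 genes with sparse CpG, Atp6v1g3, Atp6v1b1 and Atp4a were nearly missing from PTS2, and Atp6v0a4, with 1 CpG in its window, was not. These counts are a description of the sequences and say nothing of methylation, which was not measured.

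A search for 17 short motifs on both strands gave between 0 and 17 member windows per motif. The palindrome TCACGTGA, which holds the letters bound by TFEB and its relatives, the transcription factors of lysosomal genes, lay in 3 of 32 member windows (Atp6v0d1, Atp6v0e and Atp6v1a) and in 0.974% of all windows. Its core CACGTG lay in 5 of 32, those 3 genes plus Atp6v0b and Atp1b3, and in 7.15% of all windows. The forkhead motif TGTTTAC lay in 1 member window, that of Atp6v1b1, and in 3.65% of all. The GC box GGGCGG lay in 17 of 32 windows and in 35.7% of all. Some motifs lay in a smaller share of member windows than of all windows. Among them were AGAACA (6.25% against 19.0%), AGGTCA (6.25% against 16.3%) and TGTTTA (3.12% against 13.4%). A match is a description of letters in these windows and not a binding site.

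The widely expressed V-ATPase subunits were abundant in PTS2 and differed much less from kidney. Of 16 such genes, 13 were lower and 0 higher at an adjusted p under 0.05 (0 higher also at an unadjusted p under 0.05), beside 41.5% lower and 9.68% higher among all genes, and the median log2 difference was −0.31. With median-of-ratios rescaling 3 were lower and 1 higher, beside 23.1% and 23.6% of all genes, and the median was −0.02. With quantile normalization 13 were lower and 0 higher, beside 18.9% and 34.6% of all genes, and the median was −0.39. For most of them, passing the test thus depended on the scaling used. The summed level of all 25 V-ATPase genes was 3597 ± 63.8 TPM (SD, n = 12, as for all PTS2 means below) in the tubules, ranging from 3498 to 3756, and 4760 ± 67.6 TPM (SD, n = 3, likewise) in kidney.

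Within the V1 sector, the catalytic A subunit and the non-catalytic B subunit form the ring that hydrolyses ATP. Atp6v1a, the A subunit, had a lowest level of 166.79, a median of 232 and a highest level of 296.33 TPM in PTS2, and 210.85, 205.35 and 189.1 TPM in kidney. The groups overlapped and the difference did not pass the test (0.20 ± 0.14, limma adjusted p = 0.265); with median-of-ratios rescaling it was 0.49 and passed as higher in PTS2 (adjusted p = 0.00244). Atp6v1b2, the B2 isoform used by most cells, averaged 251 ± 33.2 TPM in PTS2 and 321 ± 12.1 in kidney (−0.36, limma adjusted p = 0.00938; −0.0684 and adjusted p = 0.543 with median-of-ratios rescaling), and m3 replicate 4 lay above all kidney libraries at 332.01 TPM. As a result, the ratio of Atp6v1b2 to Atp6v1a was 0.832 to 1.43 in PTS2 and 1.46 to 1.71 in kidney, ranges that did not overlap.

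Of the pump genes averaging 10 TPM or more in the tubules, 2 peripheral subunits of V1 varied least across the PTS2 libraries. Atp6v1e1, the E1 isoform of the peripheral stalks, ranged only from 364.53 to 416.95 TPM with a median of 396 (coefficient of variation 4.01%), and was at 545.47, 558.24 and 564.21 TPM in kidney. The groups were well separated (−0.50 ± 0.05, limma adjusted p = 3.42e-07), though with median-of-ratios rescaling the difference was −0.21 (adjusted p = 0.0395). Atp6v1c1, the C1 isoform, had a coefficient of variation of 4.29% and averaged 115 ± 4.93 TPM in PTS2 and 135 ± 3.47 in kidney (−0.24, adjusted p = 0.00156), a call lost with median-of-ratios rescaling.

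Atp6v1f, part of the central rotor shaft, averaged 430 ± 44.5 TPM in PTS2 and 638 ± 29.9 in kidney (−0.57, limma adjusted p = 8.13e-05). Atp6v1g1, the G1 stalk isoform, was at 165 ± 14.96 and 240.4 ± 12.1 TPM (−0.54, adjusted p = 5.43e-05). Both had no PTS2 library as high as any kidney library, and both lost the call with median-of-ratios rescaling. Atp6v1d, the other part of the shaft, and Atp6v1h, the subunit that holds back ATP hydrolysis in free V1, differed by −0.29 and −0.28 on the log2 scale and passed as lower, but with median-of-ratios rescaling the differences were −0.0012 and 0.00804 and did not pass. Atp6v1g2, the G2 isoform best known from neurons, was low in both, with means of 3.35 ± 0.964 and 4.11 ± 0.931 TPM (adjusted p = 0.337). Atp6v1e2, the isoform of sperm cells, was listed at 0 in all 15 libraries.

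In the V0 sector, the rotor ring and its small partners were among the most abundant pump genes. Atp6v0b, the c″ subunit of the ring, averaged 454 ± 30.7 TPM in PTS2 and 565.6 ± 9.94 in kidney, and Atp6v0c, the c subunit, at 297 ± 32.9 and 352 ± 11.3 TPM. Both passed the test as lower, at −0.32 and −0.25 on the log2 scale (limma adjusted p of 0.000549 and 0.0254), and median-of-ratios rescaling ended both calls (−0.0277 and 0.0390, adjusted p of 0.831 and 0.800). The call on Atp6v0c was lost when any of the 3 kidney libraries was left out, with adjusted p from 0.0534 to 0.102, and Atp6v0c also has pseudogene copies that can share its reads. Atp6v0e, a small subunit of the V0 base, was at 399 ± 37.5 and 499.5 ± 23.8 TPM, a call also ended by that rescaling (−0.0343), whereas its isoform Atp6v0e2 was at 71.8 ± 10.5 and 64.5 ± 5.42 TPM and did not pass (0.14 ± 0.12, adjusted p = 0.332). After rescaling Atp6v0e2 passed as higher in PTS2, at 0.43 with median-of-ratios (adjusted p = 0.00226) and 0.29 with quantile normalization (adjusted p = 0.0229).

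Atp6v0d1, the d1 stalk isoform of most cells (chr8:105524465-105566047, minus strand), was lower in PTS2 by more than the other widely expressed V0 members. It ranged from 51.56 to 70.1 TPM in PTS2 with a median of 59.0, and was at 93.89, 85.57 and 90.84 TPM in kidney. No PTS2 library reached a kidney library (−0.59 ± 0.09, limma adjusted p = 2.38e-05). It also passed with quantile normalization, and with median-of-ratios rescaling the difference shrank to −0.30 (adjusted p = 0.0370).

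The a isoforms decide to which membrane the pump is sent. Atp6v0a2, found in the Golgi and in proximal tubule endosomes, averaged 45.4 ± 8.51 TPM in PTS2 and 46.6 ± 2.87 in kidney, and Atp6v0a1 was at 20.1 ± 4.00 and 24.5 ± 0.954 TPM. Neither passed the test (adjusted p of 0.778 and 0.131), and among pump genes of at least 10 TPM in the tubules these had the widest relative spread in PTS2, with coefficients of variation of 18.7% and 19.9%. The a3 isoform is encoded by Tcirg1, whose symbol lies outside the rule. It was at 7.58 ± 2.44 and 15.6 ± 2.25 TPM (−1.03 ± 0.34, limma adjusted p = 0.0188).

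As shares of the summed level of all a isoforms, a2 held 36.1 to 50.1% in PTS2 and 31.1 to 35.6% in kidney, ranges that did not meet. The a4 share was 21.3 to 37.5% in PTS2 and 35.2 to 39.9% in kidney, so the ranges overlapped. The shares of the other restricted isoforms did not overlap. B1 held 0 to 1.21% of B1 plus B2 in PTS2 and 11.1 to 14.1% in kidney, and d2 held 0 to 0.636% of d1 plus d2 against 25.5 to 28.0%. G3 held 0 to 0.175% of the G isoforms against 16.5 to 18.6%, and C2 held 0 to 0.247% of C1 plus C2 against 12.8 to 13.96%. These shares are sums over members and were not tested. A single factor per library does not change them, but quantile normalization could, and they were not recomputed under it.

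**Figure D3:**
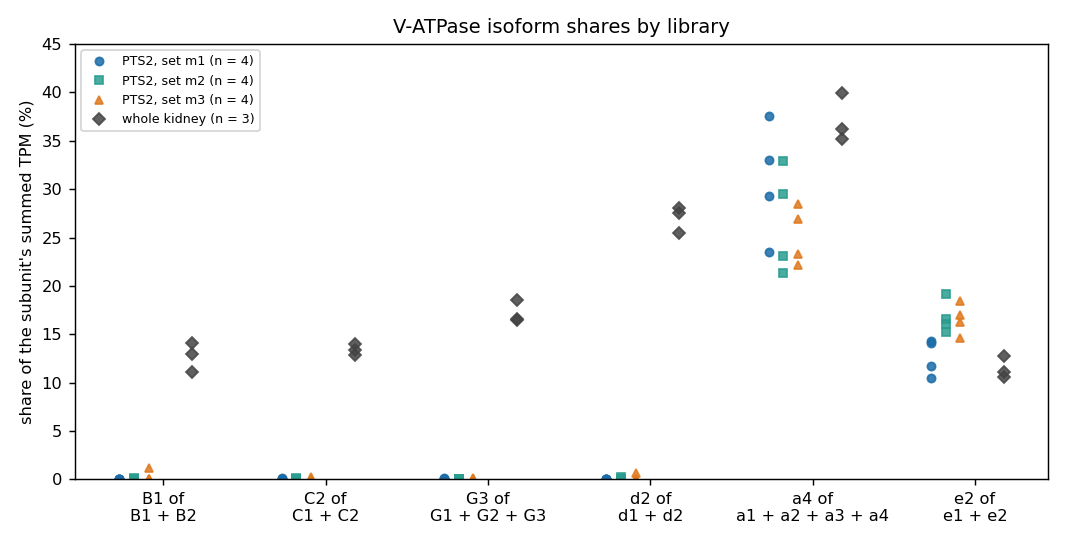
Share of each isoform in the summed TPM of its subunit, in percent, for each library of PTS2 and whole kidney. The d2, G3, C2 and B1 shares lie near 0 in PTS2 and between 11.1 and 28.0% in kidney, whereas the a4 share of PTS2, 21.3 to 37.5%, reaches into the kidney range.

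Of the accessory proteins, Atp6ap2, the prorenin receptor, which helps assemble the V0 sector, stood out. It had a lowest level of 82.82, a median of 90.2 and a highest level of 100.24 TPM in PTS2, and was at 161.45, 164.01 and 190.58 TPM in kidney. The PTS2 mean was 52.8% of that in kidney with no overlap (−0.91 ± 0.07, limma adjusted p = 1.29e-08), and the difference held under all 3 scalings. Atp6ap1, its partner in assembly, was at 258 ± 23.9 and 302 ± 7.06 TPM (−0.23, adjusted p = 0.0293). Its call was lost when any kidney library was left out (adjusted p of 0.0617 to 0.0993) and with median-of-ratios rescaling. Atp6ap1l was at 0 in all kidney libraries and at most 0.18 TPM in PTS2.

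Both beta subunits of the sodium pump that were tested were lower in PTS2 tubules than in whole kidney. Atp1b1, the main beta subunit (chr1:164437109-164458355, minus strand), ranged from 465.04 to 627.8 TPM in PTS2 with a median of 527, and was at 708.71, 789.5 and 846.58 TPM in kidney. It was lower in all PTS2 libraries (−0.54 ± 0.09, limma adjusted p = 7.61e-05), and its highest PTS2 value came from m3 replicate 3. It overlaps Nme7 on the other strand. Atp1b3, the minor beta subunit, was at 82.4 ± 7.32 and 121 ± 4.29 TPM (−0.56 ± 0.08, adjusted p = 2.92e-05). With median-of-ratios rescaling the differences of Atp1b1 and Atp1b3 were −0.24 and −0.27 and still passed (adjusted p of 0.00923 and 0.00250). Atp1b1 held 86.7% ± 0.889 of the summed level of the beta subunits in PTS2 and 86.3% ± 0.710 in kidney, a share that was not tested. Markers of the distal convoluted tubule and the principal cell were far lower in every PTS2 library. Those of the thick ascending limb were too, except in m3 replicate 3, where they summed to 56.1% of the kidney mean. The part of these cells in the Atp1b1 and Atp1b3 levels was not tested.

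Other subunits of the sodium pump were close to 0. Atp1a4, of sperm, and Atp1b4, of muscle, reached at most 0.11 TPM in any library. Atp1b2, of glia, averaged 0.125 TPM in PTS2 and 2.36 ± 0.488 in kidney. None of these reached the mean of 1 TPM needed for a test, and in kidney their levels stood beside summed nerve and glia markers of 0.94 to 1.32 TPM and smooth muscle markers of 67.6 to 84.0 TPM.

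The FXYD genes ranged from the most abundant pump gene to levels near 0. Fxyd2, the gamma subunit of the Na,K-ATPase (chr9:45399669-45410278, plus strand), led in both groups, ranked 23 of all genes in PTS2 and 13 in kidney. Its lowest PTS2 level was 3481, the median 3911 and the highest 4918 TPM, against 5506, 4948.5 and 5250 TPM in kidney. The groups did not overlap, though the highest PTS2 library came within 1% of the lowest kidney library (−0.40 ± 0.10, limma adjusted p = 0.00337), and the call was lost with median-of-ratios rescaling.

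Fxyd4, also known as CHIF, is the FXYD protein of collecting duct principal cells (chr6:117933559-117937692, minus strand). It had a lowest level of 1.1, a median of 2.99 and a highest level of 9.63 TPM in PTS2, and was at 154.19, 169.38 and 152.9 TPM in kidney. The mean in PTS2 was 2.56% of that in kidney (−5.13 ± 0.36, limma adjusted p = 4.53e-09). Principal cell markers summed to 3.00% of their kidney level in PTS2, and their part in the Fxyd4 level of PTS2 was not tested.

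Fxyd5, or dysadherin, which also affects cell adhesion, ranged from 1.04 to 5.57 TPM in PTS2 and was at 27.4 ± 0.667 TPM in kidney (−2.96 ± 0.28, limma adjusted p = 1.72e-07). Fxyd1, phospholemman, best known from heart and skeletal muscle, was listed at 0 in 5 PTS2 libraries, reached at most 1.76 TPM there and was at 10.9 ± 0.892 TPM in kidney (−3.00 ± 0.31, adjusted p = 5.64e-07). Both were lower in every PTS2 library than in any kidney library. Fxyd1 was tested only because of its level in kidney, so it had to differ. Fxyd6 was at 0.303 and 3.74 ± 0.183 TPM and missed the filter by little, with a mean over all libraries of 0.991 TPM. Fxyd3 differed widely among the kidney libraries, at 0.28, 1.2 and 4.66 TPM, with a PTS2 mean of 0.0925 TPM, and it overlaps Lgi4 on the other strand. Fxyd7, of brain, did not exceed 0.07 TPM.

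**Figure D4:**
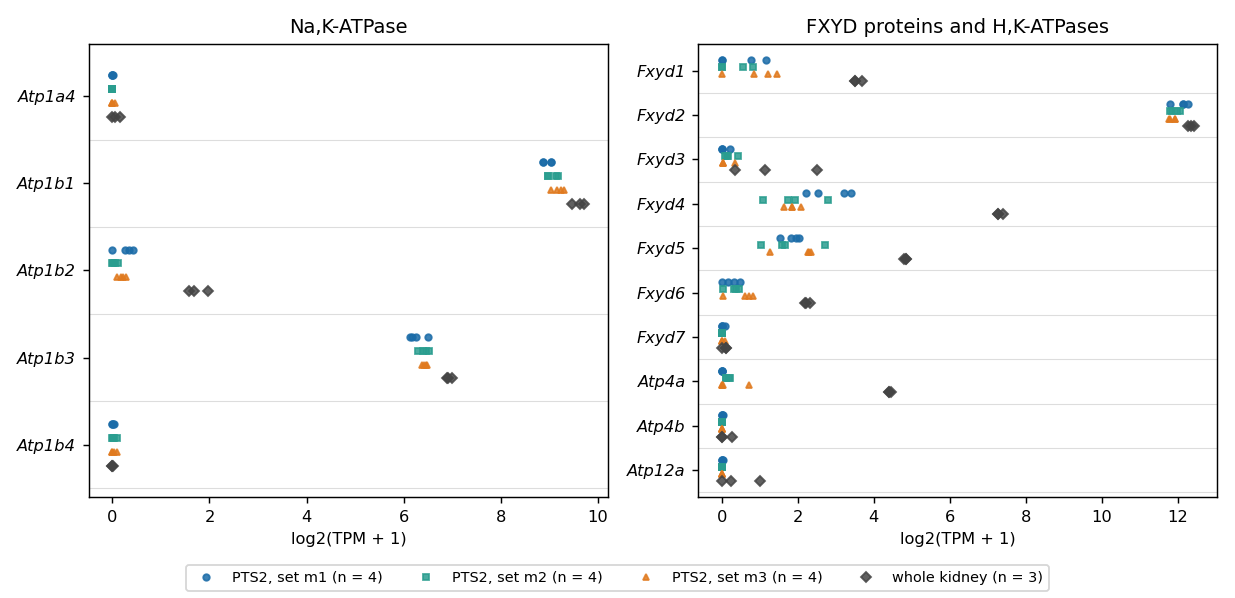
Levels of 5 Na,K-ATPase subunits (left) and of the FXYD proteins and H,K-ATPases (right) on a log2(TPM + 1) axis, with 1 point per library, by PTS2 set (n = 4 each) and whole kidney (n = 3). Fxyd2 lies above 3481 TPM in every library, Atp1b1 at 465.04 to 627.8 TPM in PTS2 and at 708.71 to 846.58 TPM in kidney, and Fxyd4 and Atp4a show the widest gaps between the groups.

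Of the H,K-ATPases, which exchange protons for potassium, Atp4a had a mean above 1 TPM, and only in kidney. This gastric alpha subunit, also used by collecting duct cells, was at 20.15, 20 and 20.84 TPM in kidney, and in PTS2 it was listed at 0 in 6 libraries with a median of 0.01 and a highest level of 0.63 TPM. The highest value again came from m3 replicate 3 (−4.30 ± 0.15, limma adjusted p = 2.44e-13; −4.36 without that library). Atp4a was tested only because of its level in kidney, so it had to differ. Its partner Atp4b had means of 0.0025 and 0.07 TPM. Atp12a, the colonic alpha subunit, was at 1.01, 0.19 and 0 TPM in the 3 kidney libraries and at most 0.03 TPM in PTS2. Neither was tested.

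Among the 3 PTS2 sets, the share of pump genes that passed the test was near that of all genes. Of the 25 pump genes tested by a moderated F test over the 12 PTS2 libraries, 1 passed at an adjusted p under 0.05, where 3.02% of the 11300 genes tested did. Without adjustment 5 had p under 0.05. The share of all genes with an unadjusted p under 0.05 is not given here. The unadjusted counts, here and below, thus have no comparison. Atp6v0d1 was at 62.5, 69.11, 65.97 and 70.1 TPM in m1, at 59.62, 58.38, 59.89 and 57.59 TPM in m2, and at 52.66, 54.76, 51.56 and 55.8 TPM in m3. The sets did not overlap, with m1 highest and m3 lowest (limma F test, adjusted p = 0.0419). Set m3 against m1 gave −0.31 ± 0.06 (limma adjusted p = 0.0196), the only pump gene called in that contrast. After adjustment 3.17% of all genes were called in it. Without adjustment 8 of the 25 pump genes had p under 0.05.

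The result for Atp6v0d1 was fragile. The F test lost its call in 10 of the 12 fits that left out 1 library, with adjusted p from 0.0246 to 0.129 over all 12, and passed only without m1 replicate 1 or without m3 replicate 4. The contrast of m3 and m1 lost its call without m1 replicate 4 (adjusted p = 0.0610), m3 replicate 1 (0.0758) or m3 replicate 3 (0.0694). The contrast of m2 and m1 called 0 pump genes (3 at an unadjusted p under 0.05) and that of m3 and m2 called 0 (0 unadjusted) with limma, against 0.54% and 1.97% of all genes. These contrasts share libraries.

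The next genes in the F test did not pass it. With the replicate number as a block, however, Atp6v0e2 (limma adjusted p = 0.0414) and Fxyd4 (0.0426) passed, and Atp6v1b2 passed between m3 and m1 (0.0447). Atp6v0e2 was at 61.0 ± 4.09 TPM (SD, n = 4) in m1, 76.8 ± 8.95 in m2 and 77.6 ± 8.30 in m3 (limma adjusted p = 0.113). Atp1b1 was at 496 ± 33.5, 538 ± 39.3 and 584 ± 44.5 TPM (adjusted p = 0.248). The m3 mean includes m3 replicate 3, the library with the thick ascending limb markers, at 627.8 TPM. Atp6v1b2 was at 223 ± 23.1, 259 ± 14.0 and 272 ± 40.2 TPM (adjusted p = 0.277). Fxyd4 was at 3.63, 9.63, 4.78 and 8.24 TPM in m1, 1.1, 2.32, 2.77 and 5.91 in m2, and 2.57, 2.6, 2.11 and 3.21 in m3 (adjusted p = 0.184). Its values in m1 were spread widely and overlapped those of m2, while all of m3 lay below all of m1. Principal cell markers were highest in m1 replicate 4, at 50.5 TPM, where Fxyd4 was at 8.24 TPM, and summed to 17.2 TPM in m1 replicate 2, where Fxyd4 was at 9.63 TPM; their part in the differences was not tested.

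**Figure D5:**
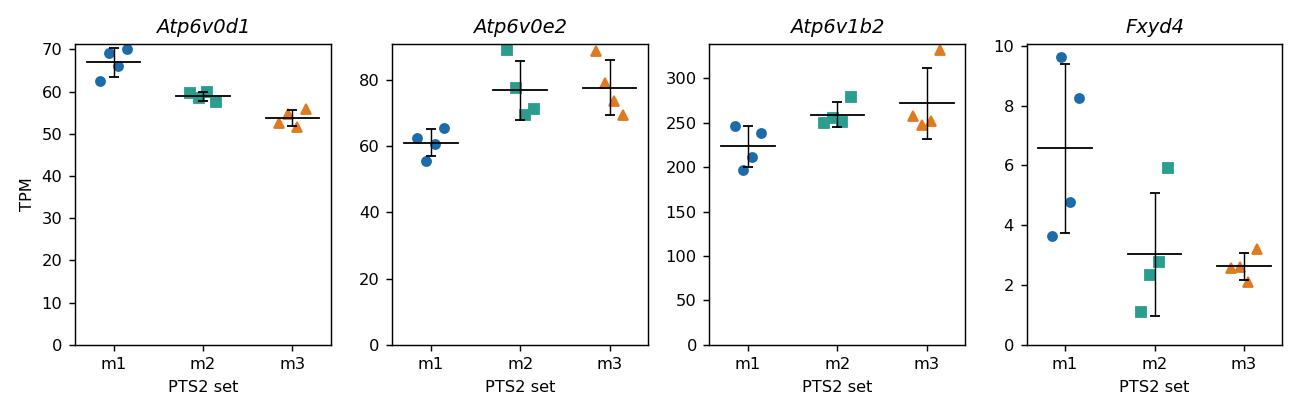
TPM of pump genes in the 4 libraries of each PTS2 set, one panel per gene. Points are libraries, the horizontal line is the set mean and the bar its SD. Atp6v0d1 falls without overlap from 62.5 to 70.1 TPM in m1 to 51.56 to 55.8 TPM in m3, while Fxyd4 overlaps between m1 and m2.

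Genes that work with the pumps were counted in lists. Among proteins that assemble or regulate the V-ATPase, 7 of 12 tested were lower and 0 higher, where 41.5% of all genes were lower, with a median of −0.45. With median-of-ratios rescaling 3 were lower and 1 higher, and with quantile normalization 2 were lower and 1 higher, with a median of 0.0972. The lower ones with the largest differences were Tldc2 (−2.93), Oxr1 (−1.08) and Tcirg1. Tcirg1 is counted in this list although, as the a3 isoform, it is a subunit of the pump itself. Tldc2 had a PTS2 mean of 0.005 TPM and was tested only because of its level in kidney, so it had to differ. The RAVE subunit Rogdi, by contrast, averaged 155 ± 15.7 TPM in PTS2 and 144 ± 2.77 in kidney (0.10, limma adjusted p = 0.358). The list for endolysosomal chloride-proton exchangers, which balance the charge moved by the V-ATPase, held Clcn3, Clcn4, Clcn5, Clcn6, Clcn7 and Ostm1. Ostm1 is a partner subunit of Clcn7 and not itself an exchanger. Of these 6 genes 2 were lower, beside 41.5% of all genes, and 6 genes are too few to tell these shares apart. They were Clcn6 (−1.38) and Clcn5 (−0.51, limma adjusted p = 0.0104), the gene of Dent disease. Under either rescaling 1 gene of this list was lower and 1 higher. Of the 16 genes of mitochondrial ATP synthase, a rotary relative of the V-ATPase, 7 were lower and 0 higher, with a median of −0.20. The share of lower genes was near that of all genes. With median-of-ratios rescaling 0 were lower and 5 higher. With quantile normalization 10 were lower and 0 higher, with a median of −0.26.

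In the lists that follow, counts of lower genes stand beside the 41.5% of all genes that were lower. Slc5a2, Slc12a3, Slc34a3, Scnn1b, Scnn1g, Atp2a3, Foxi1 and Nr3c2 had a PTS2 mean under 1 TPM. They were tested only because of their level in kidney, so they had to differ. Of 10 genes for sodium entry, the step that feeds the sodium pump, 8 were lower, led by Slc5a2 (−8.57), Slc12a3 (−7.13) and Slc12a1 (−6.74), which belong to S1, the distal convoluted tubule and the thick ascending limb. Slc9a3, the apical sodium-proton exchanger NHE3, averaged 7.84 ± 3.65 TPM in PTS2 and 27.4 ± 3.33 in kidney (−1.78 ± 0.33, limma adjusted p = 0.000290). Slc34a1, the phosphate transporter, and Slc5a1, the S3 glucose transporter, did not pass (adjusted p of 0.0788 and 0.0914). With median-of-ratios rescaling 8 of the sodium entry genes were lower and 1 higher, and with quantile normalization 9 were lower and 1 higher. Of the other P-type cation pumps, 6 of 9 tested were lower and 0 higher, led by the calcium pump Atp2a3 (−2.58), the copper pump Atp7a (−1.10) and the calcium pump Atp2b1 (−0.90), and under either rescaling 5 were lower and 2 higher. Among regulators, 5 of 9 tested were lower: Foxi1 (−4.65), Tfcp2l1 (−2.24) and the mineralocorticoid receptor Nr3c2 (−1.88) changed most, and the lysosomal factors Tfeb and Tfe3 were at −0.59 and −0.58. With median-of-ratios rescaling 3 regulators were lower and 1 higher, and with quantile normalization 3 were lower and 2 higher. Foxi1 is also in the intercalated cell list.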

How the data were processed

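RNA was extracted with a Zymo kit, converted to cDNA with the SMART-Seq V4 Ultra Low Input kit and sequenced, per the labels' protocols. The submitters' processing notes name STAR 2.5.1b, RSEM 1.2.31 and GRCm38.p5, with no roles given. The authors deposited 1 table of TPM values, whose columns sum to between 999999 and 1000001. Their own means and standard errors (4 columns) do not enter here. Each library's group comes from its description. Sequencing depth cannot be read from TPM and is unknown.

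The test was limma 3.58.1 (R 4.3.3, two-sided) on log2(TPM + 1), over genes averaging 1 TPM or more in the libraries of the fit, with Benjamini-Hochberg adjustment over all genes and a threshold of 0.05. Fold changes on this scale understate those of low genes. For PTS2 against whole kidney, the set was a correlated block (estimated correlation 0.0669) and each kidney library its own. On simulated data with 200 changed genes among 11185, the fit of PTS2 against kidney recovered 165 at a log2 difference of 1, with 14 false calls. At 0.5 it recovered 80 of 200 among 11197, and the fit among the sets 53 of 200 among 11189. Isoform shares, ratios and sums are descriptions with no test. Tables were handled in Python 3.11.15 (numpy 2.4.6, pandas 2.3.3), and figures were drawn with matplotlib 3.10.9. Gene positions come from GENCODE M21 (GRCm38) and promoters from RefSeq.

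The members and the gene lists were chosen with earlier results of these data known. All members enter the fits and counts, but some are not reported here by name. The others are all named, and of each list the genes that passed with the largest differences, plus those set beside a member. Alternatives were quantile normalization and median-of-ratios rescaling, removal of mitochondrial genes, a pseudocount of 0.1, a filter at 10 TPM or none, a block for the replicate number, 1 mean per set or sets uncorrelated, each library left out, and, for shares, a3 left out.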

Additional observations from a re-analysis of the deposited data

Results flagged for a closer look

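Within each PTS2 set of 4, a pump gene was picked out where 1 library lay far from the other 3 by Dixon's criterion. This happened in 19 of 109 tests on the members reported here. The rule's rate of about 1 in 20, or 5.45, holds for normally distributed values. Where the other 3 libraries were at 0, any value above 0 was flagged. The count of 19 can therefore not be set against 5.45. Of these, 5 concerned genes with a PTS2 mean above 1 TPM. Set m3 replicate 4 had Atp6v1b2 at 332.01 TPM (next library 257.46), Atp6v1h at 163.55 TPM (next 144.79) and Fxyd5 at 1.41 TPM, below the next at 3.78. Atp6v1c1 was at 119.6 TPM in m1 replicate 1 (next 111.14), and Atp6v0a4 at 32.59 TPM in m2 replicate 4 (next 26.2).

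Set m3 replicate 3, the library with thick ascending limb markers at 56.1% of the kidney level, stood out for 5 genes near 0 elsewhere: Atp6v1b1 at 3.08 TPM (next 0.07), Atp4a at 0.63 (next 0.02), Atp6v0d2 at 0.33 (next 0.01), Atp6v1c2 at 0.27 (next 0.03) and Fxyd7 at 0.06 (others 0). The part of other cells in these levels was not tested.

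The other values were all at most 0.26 TPM. Set m1 replicate 1 had Fxyd3 at 0.16 and Atp4b at 0.03 TPM, each at 0 in the rest of the set. Fxyd3 was at 0.26 TPM in m3 replicate 1 (next 0.03), Atp6v1b1 at 0.01 in m1 replicate 4, Atp1a4 at 0.01 in m1 replicate 3 and 0.03 in m3 replicate 1, Fxyd7 at 0.06 in m1 replicate 3, and Atp6ap1l at 0.18 in m1 replicate 2 and 0.03 in m3 replicate 4, with the next library at 0.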

How the results depend on the processing

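The scale of the libraries moved the comparison with kidney most. Median-of-ratios rescaling left 15 pump genes lower and made 2 higher, and quantile normalization made 2 higher. With median-of-ratios the log2 difference changed sign for Atp6v0c (0.0390), Atp6ap1 (0.0592), Atp6v1h (0.00804), Atp6v1c1 (0.0520) and Atp6v0a2 (0.23), and with quantile normalization for Atp6v0a2 (0.17), Atp6v0a1 (0.0556) and Atp6v1g2 (0.54). Of these only Atp6v1g2 passed the test after the change (adjusted p = 0.0300). Leaving out 1 library gave 24 to 27 genes lower and 0 to 0 higher. Among the sets it gave 0 to 1 genes by the F test, 0 to 2 for m3 against m1, and 0 to 0 for the other contrasts.

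The labels give no meaning to a shared replicate number. Of 12 pairs of PTS2 libraries from different sets with the same number, 7 had deviations correlated above 0.1 (mean 0.138), against 2 of 36 with other numbers (mean −0.0463), and 9 of 12 libraries were closest to their own number, a hint of pairing from the data. The main fits did not use the numbers to pair the libraries, and a block for the replicate number was run as an alternative. If the numbers do pair the libraries, the main fits leave that pairing out. With the replicate block, 3 of 25 pump genes differed among the sets and 4 between m3 and m1. Of all 11300 genes tested, 888 differed among the sets with the block, against 341 without it. For m3 against m1 with the block, the count over all genes is not given here. Atp6v0c lost its call against kidney with the block (limma adjusted p = 0.0503). No filter on low values called 9399 genes against kidney and 196 among the sets, and a mean of at least 10 TPM called 3113 against kidney, where 6161 were called as reported. With 1 mean per set Atp6v0a1 passed as lower (adjusted p = 0.0234). Without a3 the kidney shares of a1, a2 and a4 were 20.05, 38.1 and 41.8%. The cause of these changes was not tested.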
